A study of Sus scrofa with 48 samples.

Results

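The circRNAs described here were found in a single library of boar seminal plasma extracellular vesicles (SPEVs). They were chosen by their counts of back-splice junction reads: a circRNA was a member when its count was above 0 in exactly 1 of 24 long RNA libraries. Of 17379 circRNAs in the count table, 8389 (48.3%) were members. Their number of libraries and their reads are therefore a description. The rule used neither the group of a library nor coordinates or host genes.

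Each library was made from 1 Yorkshire boar, of which 12 had high sperm motility (H group) and 12 had low motility (L group). Total motility averaged 0.94 among H boars and 0.40 among L boars, and the boars were taken from 230 evaluated at a boar station. The ages of these adult males ran from 14 to 36 months, and the labels name no treatment of the animals. Vesicles were pelleted from seminal plasma by ultracentrifugation. They form a mixture released by several tissues, so that fewer vesicles from a tissue and less of an RNA in each vesicle cannot be told apart.

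A circRNA forms when the spliceosome joins the donor site at the end of an exon to an acceptor site upstream of it, which closes the RNA between them into a ring. Most circRNAs consist of internal exons of protein-coding genes, and 1 gene can give many of them by pairing different donors and acceptors. Lacking free ends, they resist exonucleases, and they are found in vesicles of many body fluids.

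A library held between 128644 and 610615 junction reads on circRNAs, with a median of 292648. No count in the table was 1, and the lowest above 0 was 2. Because a junction had to be reported by each of the tools find_circ and CIRI2, an entry of 0 may hide junction reads, and "a single library" means listed with reads in 1 library. The paper describes no molecular identifiers for the long RNA libraries, so counts are taken as numbers of reads and not of molecules.

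Members were not made of the smallest counts. Their median was 54 reads, with 12 reads at the 5th percentile, 225 at the 95th and 1093 at the highest. The lowest count of 2 reads occurred in 5 members, 8140 members (97.0%) had at least 10 reads, and 2056 (24.5%) had at least 100. Relative to all junction reads of the library (RPM, reads per 1000000 junction reads), the median member stood at 157.2 RPM. Just outside the rule, the 2930 circRNAs of exactly 2 libraries had a median of 89 reads in the library where they were highest, and of 130 reads in all.

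Within their own library, members mostly had fewer reads than circRNAs of wider spread. The median member had between 31 reads (L12) and 189 reads (H12), and the middle of these 24 medians was 71. For circRNAs seen in 2 to 11 libraries, the medians in the same libraries ran from 36 to 174 reads with a middle of 83. For those seen in 12 or more libraries they ran from 84 to 314 with a middle of 169. The median of the members was below that of the 2 to 11 library class in 21 of 24 libraries and below that of the 12 or more library class in all 24. Relative to the 2 to 11 library class, the median of the members was lowest in L12, at a ratio of 0.608 (31 against 51 reads), and highest in H12, at 1.10. Because reads chose the members, these orders were not tested. In sum, members carried 659457 of the junction reads, or 8.20%, while the 980 circRNAs of 12 or more libraries carried 53.2%.

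The 10 members with the most reads all came from H libraries, and 8 of them had both ends on exon edges of a gene. Counts per circRNA were higher in H libraries in every class: the library medians averaged 95.4 reads in H against 56.9 in L for members, 103.7 against 67.3 for the 2 to 11 library class, and 190.5 against 154.9 for the 12 or more library class, which was not tested. The highest count, 1093 reads in H1 (5401.5 RPM), belonged to a circRNA from 5919976 to 5958222 on chromosome 8 within STX18, which encodes a syntaxin of the endoplasmic reticulum. It ended on an exon edge but began outside annotated exons, and no other circRNA used either end. Exons 2 to 5 of the RING finger gene RNF141 gave 845 reads in H12, and no other circRNA of that gene was listed. RAPGEF5, an exchange factor for Rap GTPases, had 840 reads in H6 from 3 exons.

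RBCK1, part of the ligase that builds linear ubiquitin chains, had 820 reads in H8 on its only listed circRNA, which had 6 exons. The circRNA within C4H1orf56 had 773 reads in H8, a span of 363 bases, and splice signals on the strand opposite to the gene. ABCD3, a transporter of the peroxisome membrane, had 709 reads in H12 on 8 exons, again as the only listed circRNA of its gene. HOOK3, an adaptor between cargo and the dynein motor, had 689 reads in H12 on 13 exons, and its gene also gave 2 circRNAs of 12 or more libraries. EDRF1 had 686 reads in H8, and MOCOS, the sulfurase of the molybdenum cofactor, had 675 reads in H12. Each of these members was high in 1 boar and listed at 0 in the other 23.

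Leading members were also taken from the libraries that held the most members. H11 held the most of the H group, and its leading member, 7 exons of the meiotic gene C1H14orf39, had 421 reads. L12 held the most of the L group, and its leading member, 3 exons of the F-box gene FBXO22, had 229 reads.

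The numbers of members did not differ detectably between the groups. H libraries held between 122 (H1) and 497 (H11) members with a median of 264, and L libraries between 156 (L1) and 1066 (L12) with a median of 281. The ranges overlapped between 156 and 497 members, and 4 L libraries made up the upper end: L12 with 1066, L8 with 720, L11 with 690 and L3 with 510. In total 3378 members belonged to H libraries and 5011 to L libraries. An H library held 281.5 ± 95.1 members on average and an L library 417.6 ± 281.0 (SD, n = 12 each), which differ by 136.1 (two-sided permutation test, p = 0.127, adjusted p = 0.318 by the Benjamini-Hochberg method over the 5 comparisons of groups). With members chosen anew among the remaining libraries, the difference was 88.4 without L12 and -33.0 without the 4 libraries named above. These 4 were picked on the numbers themselves after they were seen, and all are L libraries, so a fall of the difference was built into that choice.

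Relative to what a library detected, members took nearly the same share in both groups. In H libraries they were between 11.9% and 18.1% of the detected circRNAs with a median of 13.8%, and in L libraries between 10.9% and 18.6% with a median of 13.7%. The group ranges overlapped almost fully, and the L mean minus the H mean was -0.0702 percentage points (two-sided permutation test, p = 0.946, adjusted p = 0.946). Without the same 4 libraries it was -1.63. The share of junction reads on members ran from 6.09% to 11.6% in the H group with a median of 8.90%, and from 6.02% to 12.4% in the L group with a median of 7.14%. Here the L mean of 7.48% ± 1.63 (SD, n = 12) lay under the H mean of 8.76% ± 1.81 (SD, n = 12) by less than either spread (difference -1.28, two-sided permutation test, p = 0.0844, adjusted p = 0.318). This result depended on single libraries: the difference was -1.77 without L4 (permutation p = 0.00548) and -1.60 without H10 (permutation p = 0.0325), both past 0.05 before adjustment. L4 was the highest L library and H10 the lowest H library in this share, so leaving out either favoured a wider difference. No conclusion is drawn from these 2 runs.

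The number of members and the depth of a library come from the same counts, so their relation is given as a description. Over 24 libraries, the Pearson r of the number of members with the junction reads was 0.645 and the Spearman rho was 0.581. Without H3 and L12, the libraries farthest from the median depth, r was 0.621. Within the groups, r was 0.891 over the L libraries and 0.424 over the H libraries, and the difference between these correlations was not tested. Mean depth was 337508 junction reads for H libraries and 333002 for L libraries.

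Members spanned more of the genome than widespread circRNAs. The span, end minus start, had a median of 8509 bases over all members and ran from 136 to 99659 bases. In a library the median span of members was between 5858 (H9) and 11628 bases (H1), with a middle of 9017. For circRNAs of 12 or more libraries detected in the same library, it was between 4949 and 6197 bases, with a middle of 5405. Members were longer in all 24 libraries, by 3216 bases on average (two-sided paired permutation test within libraries, p = 2e-05, adjusted p = 2.5e-05 over 5 comparisons within libraries), and 2e-05 is the smallest p that these permutations can give. Against the class of 2 to 11 libraries, whose medians ran from 5721 to 9120 bases with a middle of 6993, members were longer by 1522 bases and in 21 of 24 libraries (p = 4e-05, adjusted p = 4e-05 from the same test). Just outside the rule, circRNAs of exactly 2 libraries had a median span of 7858 bases.

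No difference in these spans was found between the groups. The library medians were 5858 to 11628 bases in the H group with a median of 8876, and 6350 to 10126 in the L group with a median of 9047. All L libraries lay inside the H range, and the difference of the means was -123.7 bases (two-sided permutation test, p = 0.849, adjusted p = 0.946). It was -892.7 bases with circRNAs on exon edges only (permutation p = 0.198), -769.3 with spans above 1000 bases only (permutation p = 0.346) and -503.4 without L12, L8, L11 and L3. No difference was found in the excess over widespread circRNAs either, at 3242 bases for H libraries and 3190 for L libraries (permutation p = 0.930, adjusted p = 0.930 over 5 such differences).

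Both extremes of length were more frequent among members. Spans of at most 200 bases were found in 349 members (4.16%) and in 18 of the 980 circRNAs of 12 or more libraries (1.84%). Spans above 50000 bases were found in 565 members (6.74%) and 31 widespread circRNAs (3.16%). In each of the 24 libraries, the shares of very short and of very long circRNAs were higher among members than in either other class. The 3 shortest members were 136 bases in EGLN2, a prolyl hydroxylase that acts on hypoxia-inducible factors, 138 bases in the histone demethylase gene KDM5B, and 140 bases in SPTAN1, a spectrin of the membrane skeleton. The first had 173 reads in H3 and was exactly exon 4 of its gene. KDM5B had 12 reads in L11 on exon 20, and SPTAN1 had 21 reads in H10 with its ends away from exon edges. The 3 longest were 99659 bases in PCGF6, a Polycomb group protein, with 673 reads in H8, 99365 bases in TANC1 with 7 reads in L12, and 98667 bases in XRCC4, a factor of DNA end joining, with 79 reads in L3. TANC1 and XRCC4 circles both began at exon 2 and held 6 exons each, whereas the PCGF6 circle did not have both ends in exons.

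Splice signals at the ends gave the strand of each circRNA. All 8330 members on chromosomes had AG before the acceptor end and GT after the donor end on 1 strand of the genome, as did the other classes. Both find_circ and CIRI2 use such signals to find junctions, so this was set by the method. The remaining 59 members lay on scaffolds and were not annotated. For 215 of 7815 members within a gene (2.75%), these signals were on the strand opposite to the host gene. This was so for 18 of 7712 circRNAs of 2 to 11 libraries and for 0 of 950 of 12 or more libraries.

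Fewer members lay on annotated exon edges. By the position of both ends, 7127 members (85.0%) were exonic, 688 (8.20%) had at least 1 end in an intron of their host gene, and 515 (6.14%) were intergenic. Among circRNAs of 12 or more libraries the corresponding shares were 95.7%, 1.22% and 1.94%. Both ends were exactly on exon edges of 1 gene for 6407 of 8330 members (76.9%). In a library this share was between 69.4% (H11) and 85.1% (H4) for members with a middle of 76.0%, between 87.5% and 93.1% for the 2 to 11 library class, and between 93.6% and 95.5% for the widespread class. The ranges of members and of both other classes did not meet. The mean difference was -18.4 percentage points from the widespread class and -14.4 from the 2 to 11 library class, with members lower in all 24 libraries both times (two-sided paired permutation tests within libraries, each p = 2e-05, adjusted p = 2.5e-05). No difference between the groups was found in these deficits: the first was -19.6 for H libraries and -17.2 for L libraries (permutation p = 0.153, adjusted p = 0.417). Of circRNAs in exactly 2 libraries, 87.5% had both ends on exon edges.

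The share on exon edges changed with length. It was 56.1% for members of at most 200 bases, 61.6% above 200 and up to 500 bases, 82.7% above 5000 and up to 20000 bases, and 67.6% above 50000 bases. At most 200 bases, 16 of 18 widespread circRNAs had both ends on exon edges.

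Members on exon edges joined more exons than widespread circRNAs and lay farther inside their genes. The median member on exon edges held 4 exons and 542 exonic bases, against 3 exons and 370 exonic bases for the widespread class. Circles of 6 or more exons made up 28.7% of these members and 12.9% of the widespread class. Exon 2, the first with an acceptor site, opened 17.9% of the members and 32.5% of the widespread class. The introns beside the circle were shorter for members, with a median of 4902 bases upstream and 4077 downstream, against 8634 and 7305. These orders of intron length and of exonic bases held in all 24 libraries. The median number of exons was higher for members than for the widespread class in 19 libraries and lower in 0. Just outside the rule, circRNAs of exactly 2 libraries on exon edges had medians of 3 exons and 496 exonic bases. Among them, 22.6% had 6 or more exons and 20.2% opened at exon 2. Their introns had medians of 5506 bases upstream and 4732 downstream.

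Few members used an end of a widespread circRNA. A start or end of a circRNA seen in 12 or more libraries was used by 554 members (6.60%), of which 241 shared the start only, 301 the end only, and 12 took a start and an end from different widespread circRNAs. In terms of splice sites, 330 members shared an acceptor and 232 a donor. In a library the share of members with a common end was between 4.21% (H9) and 10.3% (L1), with a middle of 6.31%. For circRNAs of 2 to 11 libraries it was between 13.2% and 18.9%, with a middle of 15.4%, so that the ranges did not meet. The mean difference was -9.06 percentage points, with members lower in all 24 libraries (two-sided paired permutation test within libraries, p = 2e-05, adjusted p = 2.5e-05). Over circRNAs of exactly 2 libraries, 8.63% shared such an end.

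The groups overlapped in this share. It ran from 4.21% to 9.84% in the H group with a median of 6.69%, and from 4.24% to 10.3% in the L group with a median of 6.15%. The difference of the means was -0.438 percentage points (two-sided permutation test, p = 0.520, adjusted p = 0.867).

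Most members stood apart even where their gene gave a widespread circRNA. A host gene with a circRNA of 12 or more libraries was found for 1673 members (19.9%), and 1138 of these used neither end of one. In such host genes, 406 of 650 circRNAs of exactly 2 libraries and 1184 of 2206 of 2 to 11 libraries also used neither end. Near misses were rare, as 4 members had a start within 10 bases of a widespread start without matching it, and 1 had an end that close. Counting circRNAs of any class, 4318 members (51.5%) shared an end with another circRNA and 4071 (48.5%) shared none. Over all circRNAs 38.5% shared none, and among those of exactly 2 libraries 36.7%. Both ends were known from circRNAs of 2 or more libraries for 398 members (4.74%), which were thus other pairings of ends already in use. Seen from the widespread circRNAs, 452 of 980 (46.1%) had a member on an end.

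Junction sequences show how a member differs from the widespread circRNA beside it. They are given for 3 of the 4 most abundant widespread circRNAs, by mean RPM, that share an end with a member. Each sequence has the last 15 bases before the junction and the first 15 bases after it, 5′ to 3′ on the RNA strand, from the RefSeq genome Sscrofa11.1, with capitals for the side that both circRNAs share.

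TLK1, a kinase that acts on histone chaperones, gave a widespread circRNA at chr15:77234646-77283482 on the minus strand, with 49218 reads in 23 libraries. Its member at chr15:77221202-77283482 used the same acceptor at exon 2 but a donor 13444 bases farther on, with 9 exons in place of 3. The member had 155 reads in H3, where the widespread circle had 4303.
TLK1 widespread: atgaaagtagtcaggGTGCAATGGATGAAC
TLK1 member: tcagaatctcgtaaaGTGCAATGGATGAAC

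CSPP1, a protein of the centrosome and spindle poles, had its widespread circRNA at chr4:67679793-67689219 on the minus strand, with 40151 reads in all 24 libraries. The member at chr4:67669926-67689219 again kept the acceptor and moved the donor, by 9867 bases, from 5 exons to 9. It had 34 reads in L8 beside 2586 of the widespread circle.
CSPP1 widespread: aatggtgcctcccagGATGTACGGAAACAG
CSPP1 member: aaggaaatctgataaGATGTACGGAAACAG

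PAN3, a subunit of a complex that shortens poly(A) tails, had its widespread circRNA at chr11:5503065-5507316 on the plus strand, with 28223 reads in all 24 libraries. An end of this circRNA was used by 2 members. The member at chr11:5503065-5566038 kept the acceptor at exon 2 and took a donor 58722 bases downstream that is in no annotated exon of the gene. It had 26 reads in H10 beside 1218.
PAN3 widespread: tctcagagaagaaagTTCCTGGAATAGATG
PAN3 member: ggacagctctgagggTTCCTGGAATAGATG

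Members were spread over many genes. The 7815 members within genes came from 3921 host genes, of 5176 host genes of all circRNAs, and 2198 of them had 1 member each. At least 10 members were found in 25 genes.

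The genes with the most members were genes that gave many circRNAs. BRWD1, which encodes a bromodomain protein of chromatin, had 18 members among 34 circRNAs, from 14 libraries. MYO9A, an unconventional myosin, had 17 of 30 from 13 libraries, and none of its circRNAs reached 12 libraries. SMARCC1, a core subunit of the BAF chromatin remodelling complex, had 17 of 44, and 6 of the 17 came from L12. CHD2, a chromatin remodelling helicase, had 16 of 40. ABCB5, a transporter of the ATP-binding cassette family, had 15 of 30. BIRC6, an inhibitor of apoptosis, and SYNE2, which links the nucleus to the cytoskeleton, had 14 each, of 28 and 24 circRNAs. There were 13 each in 4 genes: the ubiquitin ligase UBR3, the DNA damage kinase ATM, the nonsense-mediated decay factor UPF2 and the centrosome protein NIN. In NIN, 13 of 16 circRNAs (81.3%) were members and none was seen in more than 2 libraries. Members of these 11 genes occurred in both groups, with 4 to 11 from H libraries in each gene and 5 to 11 from L libraries.

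For 1706 host genes, every listed circRNA was a member, 2280 members in all, and 1314 of these genes had 1 listed circRNA. In 369 of these genes the members came from 2 or more libraries, so that libraries shared the gene but no circRNA of it. ZZEF1 had 9 such members from 7 libraries, and TENM3, a teneurin of the cell surface, had 7 from 6 libraries. NUP155, a nucleoporin, and EEF2, the elongation factor that moves ribosomes along mRNA, had 6 members from 6 libraries each. CFTR, the chloride channel of secretory epithelia, had 6 members from 2 libraries, 5 in L12 and 1 in L8.

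Marker genes of tissues along the male tract were found among the hosts. Of 26 genes of the epithelium of the epididymis and accessory glands, 11 gave 85 circRNAs, of which 44 (51.8%) were members, beside 48.3% over all circRNAs. Of these 44 members, 10 were in H libraries and 34 in L libraries, and their median was 60.5 reads. Over all members, 59.7% were in L libraries, and L12, L8, L11 and L3 held many of them, so the splits between groups given for single lists and genes are counts only. ABCB5 held 15, from 11 to 191 reads. CDH1, the adhesion protein E-cadherin, held 8, and its highest, with 412 reads in H12, had splice signals on the strand opposite to the gene. PAX2, a transcription factor of the urogenital ducts, held 4, all from L libraries. The epithelial regulators ESRP1, which controls splicing, and GRHL2, a transcription factor, held 3 each. No circRNA was listed for the keratins KRT8, KRT18 and KRT5, for GPX5 or for 11 others of the list, and only 21 of the 26 symbols are in the annotation.

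Genes of germ cells and spermatozoa were also hosts. Of 32 genes, 20 gave 88 circRNAs, and 49 (55.7%, beside 48.3% over all circRNAs) were members, 25 in H libraries and 24 in L libraries, with a median of 58 reads. None of the 88 was seen in 12 or more libraries. DNAH8, a dynein heavy chain of the sperm tail, held 8 members among 9 circRNAs, from 12 to 99 reads in 5 libraries. HSPA4L, a chaperone abundant in the testis, held 7 from 6 libraries, and ARMC4, needed for the dynein arms of cilia, held 5 from 5 libraries. SYCP1, of the synaptonemal complex, held 3, the highest with 204 reads in H11. PIWIL2, which binds piRNAs, had its 3 members in L libraries. CFAP44, of the sperm flagellum, and ADAM2, a fertilin subunit of the sperm surface, had 3 each, all in H libraries. SPAG17, of the central pair of the axoneme, held 3 as well. PRM1, TNP1, AKAP4, SYCP3 and 8 others of the list gave no circRNA, and 31 of the 32 symbols are in the annotation.

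The remaining lists gave fewer circRNAs. Leukocyte genes gave 10 circRNAs from 6 of 24 genes, 7 of them members (70.0%, beside the same 48.3%), with 0 for PTPRC, CD3E, CD14 and CD68. The paper names MX2, also on this list, as host of a circRNA, but MX2 had none here. Counts for these lists therefore depend on the annotation used. The 6 erythroid genes gave none. Of 16 factors known to act on back-splicing, 10 gave 16 circRNAs, of which 10 were members (62.5%), with 0 to 2 members in each gene. Whether the mixture of tissues had a part in the numbers of members in each library was not tested.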

How the data were processed

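Long RNA libraries of SPEVs from 24 boars were analysed, and the 24 small RNA libraries were not used. The deposited values are raw counts, not normalized, that the authors made from reads across back-splice junctions, keeping circRNAs that both find_circ and CIRI2 reported with at least 2 reads. The submitters' processing notes name cutadapt, FastQC, Bowtie and the build susScr11. All table columns matched a labelled library (0 unmapped). No filter was applied. Members and lists were chosen with earlier results of these data known.

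All steps ran in Python 3.11.15 (pandas 2.3.3, NumPy 2.4.6, SciPy 1.17.1). Ends were placed on exons of Sscrofa11.1 from NCBI Annotation Release 106, taking as host a gene that contains both ends, and the strand was read from the splice signals. RPM is reads per 1000000 junction reads of the library. With 128644 to 610615 junction reads, 3 reads correspond to 4.91 to 23.3 RPM.

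Groups were compared over libraries with permutation tests (two-sided, 100000 resamples), and classes by flipping signs within libraries. The smallest p they can give is 2e-05. CircRNAs of the other classes occur in several libraries, so the differences within libraries rest partly on the same circRNAs. Flipping signs treats libraries as independent, so the p of these comparisons may be too small. Values of p were adjusted by the Benjamini-Hochberg method over the 5 comparisons of groups and, separately, over the 5 within libraries. Single members have reads in 1 library and were not tested one by one. The tests were tried on simulated data, of which no result is given or used here.

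Named were the 10 members with the most reads, the leading member of the library of each group with the most members, the 10 host genes with the most members (11 with ties), the 5 with the most members among genes with no other circRNA, the 3 longest and 3 shortest members, the 4 most abundant circRNAs of 12 or more libraries that share an end with a member, and listed marker genes with at least 3 members; not every item that this rule takes is described. Other marker genes are named where they gave no circRNA. L12, L8, L11 and L3 were singled out after their values were seen.

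Alternatives were at least 5 reads, an RPM floor, a log scale, mean log10 spans, exon-edge circRNAs only, exonic bases, common ends from 6 or 18 libraries, ends within 5 bases, genes with a widespread circRNA, the replicate number as a block, and each library left out. Leaving out the 4 libraries with the most members, and spans above 1000 bases only, were added after seeing the data.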

Additional observations from a re-analysis of the deposited data

How the results depend on the processing

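Longer spans, fewer common ends and fewer exon edges of members within libraries kept their direction and their side of 0.05 under every alternative run, each library left out included. Apart from single libraries left out, 58 alternative values kept direction and side, 3 reversed and 1 was weaker. The L minus H difference in the number of members turned to -33.0 without L12, L8, L11 and L3, which were picked on that number after seeing the data, with members chosen anew. The small L minus H difference in span turned positive as a mean of log10 span (0.0128), and that in common ends turned positive with common ends from 6 libraries (0.656). The correlation of members with depth was weaker over the 12 H libraries alone (r = 0.424). With 1 library left out, the L minus H difference in the share of detected circRNAs ran from -0.430 to 0.306, in median span from -575.1 to 165.0 bases, in common ends from -0.691 to 0.202, and in the share of junction reads from -1.77 to -1.08. Signs turned without H1 for span, without H4 or H5 for common ends, and the share of detected circRNAs kept its sign in 15 of 24 such runs. The share of junction reads passed 0.05 unadjusted without L4 (-1.77, permutation p = 0.00548) and without H10 (-1.60, permutation p = 0.0325). These are extremes of that share, so leaving out either favoured a wider difference. The causes were not tested. Libraries of the H and L groups that share a number come from different boars: their correlations ran from -0.0428 to 0.193, and 1 of 12 H libraries correlated best with its own number. With the replicate block, the difference in the number of members was 136.1 (paired permutation p = 0.101), and no comparison changed its side of 0.05. Depth limits which junctions a library can list, and an entry of 0 is read as no upper limit, since junctions had to be reported by both find_circ and CIRI2.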
